A study of Mus musculus with 6 samples.

Results

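The nascent transcription of 10 genes of fibroblast growth factor (FGF) signalling is described in proliferating muscle stem cells (MuSCs, also called satellite cells) with and without the histone methyltransferase gene *Kmt5b*. The genes are the ligands *Fgf6*, *Fgf2* and *Fgf7*, the receptors *Fgfr1* to *Fgfr4* and the intracellular inhibitors *Spry1*, *Spry2* and *Spry4*. They were taken by symbol from a PRO-seq table of 14546 genes, and all 10 are listed. *Fgf6* was chosen by its gene body values, which differed between the genotypes in these same 6 libraries, so its difference is a description and received no test. The other 9 genes were added as its best known partners in muscle, with earlier results of these libraries already known.

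The study examined how loss of *Kmt5b*, which encodes an H4K20 methyltransferase, alters transcription in MuSCs. Nascent RNA was sequenced by PRO-seq, which labels and captures the RNA of engaged polymerases and was counted here on the sense strand of each gene, in 3 Ctrl and 3 *Kmt5b* sKO libraries. The labels give the cell type as muscle satellite cell and the genotypes as Pax7CreERT/Suv4-20h1WT and Pax7CreERT/Suv4-20h1KO, Suv4-20h1 being an older name of *Kmt5b*. Both genotypes therefore carry the Pax7CreERT allele, a tamoxifen-inducible Cre made in cells that use the *Pax7* promoter, and the mice were adult and on a C57BL/6 background. The cells were purified with a magnetic satellite cell kit and grown in serum with LIF and basic FGF, the protein that *Fgf2* encodes, so an FGF ligand was supplied to both genotypes. The libraries are called biological replicates in the study, but nothing in the labels ties them to separate mice, and p-values measure only the spread between these libraries.

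FGFs are secreted proteins that bind receptor tyrosine kinases together with heparan sulfate on the cell surface. The activated receptor signals through adaptor proteins to RAS and the MAP kinases ERK1 and ERK2, and ERK activity in turn induces inhibitors such as the Sprouty proteins, which dampen the pathway. In muscle, *Fgf6* is the ligand most closely tied to the myogenic lineage, FGF2 is a classical mitogen of cultured satellite cells, *Fgfr1* and *Fgfr4* are the main receptors of myogenic cells, and *Spry1* is known for its part in the return of satellite cells to quiescence.

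Promoter sequences in RefSeq (GRCm38.p6) were found for 8 of the 10 genes, the exceptions being *Fgfr1* and *Spry4*. The 250 bases before the start are shown for *Fgf6*, around which the set was built, for *Fgfr4*, the receptor with the highest Ctrl level, and for *Spry2*, the gene with the highest level of all 10. They are read 5′ to 3′ on the gene's strand, and capitals mark every E-box (CANNTG, the type of site that MYOD and its relatives bind).
Fgf6, chr6:127015292-127015541, plus strand: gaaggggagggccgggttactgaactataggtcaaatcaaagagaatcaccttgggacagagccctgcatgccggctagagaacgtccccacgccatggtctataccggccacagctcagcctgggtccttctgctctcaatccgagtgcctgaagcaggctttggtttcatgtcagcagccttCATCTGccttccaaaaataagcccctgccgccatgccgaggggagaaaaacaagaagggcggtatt
Fgfr4, chr13:55152568-55152817, plus strand: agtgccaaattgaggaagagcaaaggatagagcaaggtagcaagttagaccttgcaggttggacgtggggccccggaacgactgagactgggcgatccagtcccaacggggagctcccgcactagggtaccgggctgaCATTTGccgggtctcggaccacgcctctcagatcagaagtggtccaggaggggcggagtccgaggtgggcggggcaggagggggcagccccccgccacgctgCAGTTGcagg
Spry2, chr14:105896820-105897069, minus strand: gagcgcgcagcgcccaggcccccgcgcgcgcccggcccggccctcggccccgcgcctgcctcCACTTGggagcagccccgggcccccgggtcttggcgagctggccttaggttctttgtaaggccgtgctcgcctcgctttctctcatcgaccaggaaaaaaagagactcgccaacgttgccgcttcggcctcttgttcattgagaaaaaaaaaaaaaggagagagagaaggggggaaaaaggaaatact
The *Fgf6* window held 1 E-box, 66 bases before the start, and 9 CpG dinucleotides. The *Fgfr4* window held 2 E-boxes and 15 CpGs, and the *Spry2* window 1 E-box and 23 CpGs, against a median of 6 CpGs over 32851 mouse promoter windows of the same length. An E-box is common, as 66.2% of all windows hold one. The TATA box (TATAAA), present in 12.4% of all windows, and the MEF2 box, present in 2.92%, were found on neither strand in any window of the 8 genes. The GC box GGGCGG, found in 32.7% of all windows on either strand, was present in the windows of *Fgf6*, *Fgf2*, *Fgfr3*, *Fgfr4* and *Spry1*. The ETS core CCGGAA, found in 12.0%, was present in that of *Fgfr4*. The listed start of *Fgfr4* lies 178 nt before the RefSeq start, so that most of its window shown is part of the TSS region counted here, and the listed start of *Fgf2* lies 307 nt from the RefSeq start. These are letter matches and say nothing of binding.

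Values were deposited for 2 regions of 1 isoform per gene. The TSS region is the first 400 nt and is given in RPM (reads per fixed total of reads counted in TSS regions). The gene body is the remainder of the gene and is given in TPM, which also divides by length, so that levels of different genes are compared here only in gene body TPM. Each scale fixes the total of its own region, so a rise or fall of all transcription together would not show. The values are whole multiples of what 1 read contributes, which recovered 926904 to 3246052 TSS reads and 7425424 to 16249119 gene body reads per library. *Kmt5b* itself did not check the labels, since its gene body lay between 30.6 and 42.6 TPM in all 6 libraries with no fall in the *Kmt5b* sKO group. Of the MuSC markers *Pax7*, *Myf5*, *Myod1*, *Cdh15*, *Itga7*, *Vcam1* and *Des*, none was at 0 in any library, and their summed gene body level was 1532 to 2729 TPM. Among markers of other cells, 4 of 6 endothelial markers were listed. Their sum was 3.54 to 8.57 TPM in Ctrl against 5.45 to 14.7 TPM in *Kmt5b* sKO libraries and overlapped. The Schwann cell sum was 8.8 to 11.7 TPM in Ctrl against 15.8 to 25.8 TPM in *Kmt5b* sKO libraries. The immune sum of 214.2 to 402.0 TPM was almost wholly *Cd68*, the defining gene *Ptprc* being absent from the table.

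The 10 genes spanned more than 2 orders of magnitude in the gene body. In Ctrl MuSCs the order of the means was *Spry2*, *Spry1*, *Fgfr4*, *Fgfr1*, *Spry4*, *Fgfr3*, *Fgfr2*, *Fgf6*, *Fgf2* and *Fgf7*. *Spry2*, at 259.8 ± 53.3 TPM (SD, n = 3), had a higher level than 99.0% of the tested genes, and *Spry1*, at 146.6 ± 35.6 TPM (SD, n = 3), than 97.5%. *Fgfr4* stood at the 94.3rd percentile, *Fgfr1* at the 83.4th and *Spry4* at the 63.5th, while the ligands lay at the 12.3rd (*Fgf6*) and 7.2nd (*Fgf2* and *Fgf7*). Thus *Spry1*, *Spry2* and the muscle receptors were among the strongly transcribed genes and the ligands among the weakly transcribed ones, with a median gene at 15.9 TPM and *Spry4* not far above it. The ranges of neighbours in this order were apart between *Spry2* and *Spry1*, between *Spry4* and *Fgfr3* and between *Fgfr2* and *Fgf6*. The other neighbours did not differ beyond their spread. In *Kmt5b* sKO MuSCs the order was *Spry2*, *Spry1*, *Spry4*, *Fgfr4*, *Fgfr1*, *Fgf6*, *Fgfr3*, *Fgfr2*, *Fgf2* and *Fgf7*. There the ranges were apart between *Spry2* and *Spry1*, *Spry1* and *Spry4*, *Fgfr1* and *Fgf6*, and *Fgfr3* and *Fgfr2*.

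**Figure D1:**
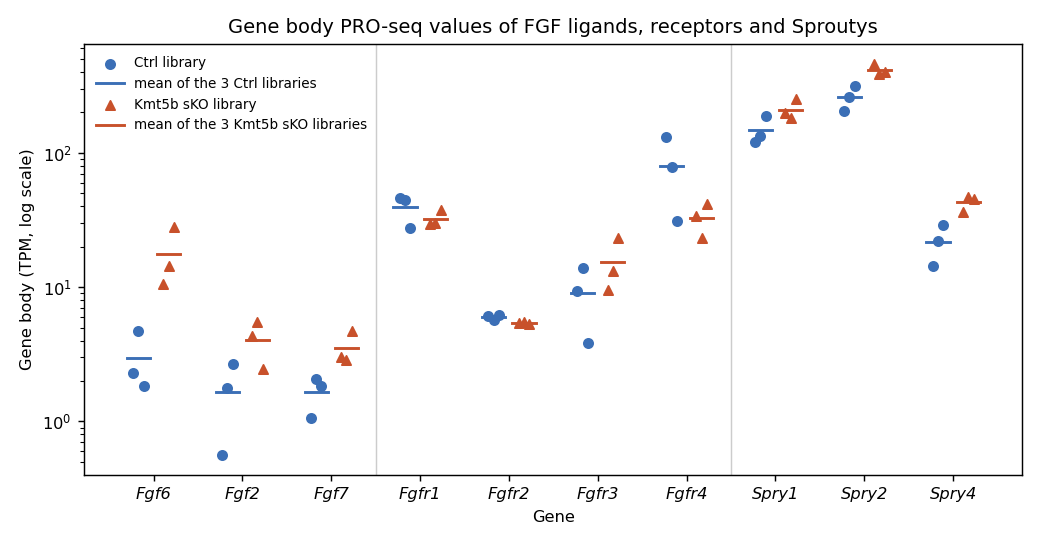
Gene body PRO-seq value (TPM, log scale) of each of the 10 genes in the 3 Ctrl libraries (circles) and the 3 *Kmt5b* sKO libraries (triangles), with horizontal lines at the group means. The 2 groups are apart for *Fgf6*, *Fgf7*, *Fgfr2*, *Spry2* and *Spry4*, *Spry2* lies highest in both genotypes, and the ligands lie lowest in Ctrl.

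*Fgf6* (ENSMUSG00000000183, chr6:127015586-127028187 on the plus strand of GRCm38) has 3 exons, and no other gene of GENCODE vM21 overlaps it on either strand. Its gene body held 2.3, 4.68 and 1.84 TPM in Ctrl replicates 1 to 3 against 10.6, 14.3 and 27.9 TPM in *Kmt5b* sKO replicates 1 to 3. Every *Kmt5b* sKO library lay above every Ctrl library, and the *Kmt5b* sKO libraries differed among themselves by more than the Ctrl libraries did on this linear scale. The reads behind these values were 41, 65 and 32 in Ctrl against 144, 114 and 325 in *Kmt5b* sKO libraries. The means were 2.94 ± 1.52 and 17.6 ± 9.12 TPM (SD, n = 3 each), and the log2 fold change of (TPM + 0.5) was 2.37 (standard error 0.41). This difference moved *Fgf6* from the 12.3rd percentile of the tested genes in Ctrl to the 54.4th in *Kmt5b* sKO MuSCs. In these bulk libraries, more cells that transcribe a gene and more transcription per cell cannot be told apart.

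The TSS region of *Fgf6* was thinly covered. Of its 400 nt, 346 are coding sequence of the first exon, and the listed start lies 44 nt from the RefSeq start. It held 0.48, 1.72 and 0.57 RPM in Ctrl against 0.66, 5.28 and 11.04 RPM in *Kmt5b* sKO libraries. These values rest on 2, 3 and 3 reads and on 2, 8 and 24 reads, and the groups overlapped because *Kmt5b* sKO replicate 1 stayed at the Ctrl level. The log2 fold change of (RPM + 0.5) was 1.69 (standard error 0.73), again with no test.

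Genes around *Fgf6* were looked at for the same difference. Upstream, *Dyrk4*, which encodes a protein kinase, had 2.02, 1.55 and 1.56 TPM in Ctrl against 0.77, 0.47 and 0.85 TPM in *Kmt5b* sKO libraries. All 3 *Kmt5b* sKO values lay below the Ctrl values, but the log2 fold change of -0.89 did not pass the threshold (limma, adjusted p = 0.13). *Rad51ap1*, a homologous recombination gene, and *D6Wsu163e* overlapped between genotypes (log2 fold changes -0.61 and 0.14, limma, adjusted p = 0.34 and 0.75). Downstream, the hormone gene *Fgf23* was at 0.17 to 0.69 TPM in Ctrl against 0.26 to 1.33 TPM in *Kmt5b* sKO libraries and too low to be tested. *Tigar*, a regulator of glycolysis, had 6.0 to 9.02 TPM in Ctrl against 9.32 to 11.1 TPM in *Kmt5b* sKO libraries (log2 fold change 0.37, limma, adjusted p = 0.41). *Ccnd2*, encoding cyclin D2, had 4.45, 4.07 and 11.4 TPM in Ctrl against 15.3, 18.6 and 9.66 TPM in *Kmt5b* sKO libraries and overlapped (log2 fold change 1.17, limma, adjusted p = 0.22). None of the 5 tested neighbours, which begin or end 39619 to 96975 nt away, was called.

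The genes whose gene body pattern over the 6 libraries was most like that of *Fgf6*, by Pearson's r of log2(TPM + 0.5) among 12420 genes, were *Sorbs2*, *Herc3*, *Fsd2*, *Prnp* and *Tlr6*, with r from 0.994 to 0.996. *Sorbs2* held 12.1, 17.4 and 11.3 TPM in Ctrl against 24.5, 25.9 and 34.8 TPM in *Kmt5b* sKO libraries. With the genotype means taken off, the closest genes were *Iqcd*, *Yif1b*, *Kcnq5*, *Acsl1* and *Prnp* (r from 0.993 to 0.996), so that *Prnp*, the prion protein gene, was close by both measures. These coefficients rest on 6 libraries that share their scaling and are descriptions only.

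Markers of myogenic differentiation are given beside *Fgf6*. The summed gene body level of 12 such markers (*Myog*, *Mymk*, *Mymx*, *Ckm*, *Myh3*, *Myh8*, *Acta1*, *Tnnt1*, *Tnnt3*, *Tnni1*, *Tnnc1* and *Mef2c*) was 3046, 3809 and 2104 TPM in Ctrl against 4307, 4090 and 5406 TPM in *Kmt5b* sKO libraries. The groups were apart, none of the 12 genes was at 0 in any library, and the library with the highest sum, *Kmt5b* sKO replicate 3, was also the one with the most *Fgf6*. Of the 12, 11 had a positive log2 fold change, with a median of 0.84 (0.023 over all tested genes), and 6 had all *Kmt5b* sKO libraries above all Ctrl libraries, as did 12% of the tested genes, while the other 6 overlapped. *Tnnc1*, slow troponin C, was the 1 marker of 12 called in the gene body, where 2.99% of the tested genes were called, with 114.0, 188.1 and 107.6 TPM in Ctrl against 273.1, 306.1 and 388.8 TPM in *Kmt5b* sKO libraries (log2 fold change 1.27 ± 0.25 standard error, limma, adjusted p = 0.075). In the TSS region 2 of the 12, *Tnnc1* and *Mef2c*, were called, where 1.66% of the tested genes were. The part of differentiation in the *Fgf6* values was not tested.

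*Fgf2* (chr3:37348346-37405377, plus strand), the gene of the mitogen that was also in the medium, held 0.56, 1.77 and 2.66 TPM in the Ctrl gene bodies against 4.29, 5.45 and 2.46 TPM in the *Kmt5b* sKO gene bodies. *Kmt5b* sKO replicate 3 lay below Ctrl replicate 3, and the log2 fold change of 1.16 ± 0.44 (standard error) was not called (limma, adjusted p = 0.26). In the TSS region it held 0.24, 2.87 and 3.98 RPM in Ctrl against 4.92, 3.30 and 2.3 RPM in *Kmt5b* sKO libraries, from 1 to 21 reads. Over 99.1% of its body another gene of the same strand, the non-coding *Gm43439*, is annotated, and the reads of both cannot be told apart.

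*Fgf7* (chr2:126034658-126091185, plus strand), a ligand that mesenchymal cells make for epithelia, held 1.06, 2.07 and 1.83 TPM in Ctrl against 3.01, 2.88 and 4.73 TPM in *Kmt5b* sKO gene bodies. The groups were apart (log2 fold change 0.91 ± 0.28 standard error), but the gene was not called (limma, adjusted p = 0.17). Its TSS region held 0, 4.02 and 2.08 RPM in Ctrl against 2.62, 2.64 and 2.76 RPM in *Kmt5b* sKO libraries, with at most 11 reads, and overlapped. Markers of fibro-adipogenic progenitors, the mesenchymal cells of muscle, summed to 89.8, 163.4 and 125.3 TPM in Ctrl against 123.5, 136.2 and 105.0 TPM in *Kmt5b* sKO libraries over the 7 of 9 markers listed. These sums overlapped between genotypes, and most of each came from *Col1a2* and *Col3a1*. *Col1a2* held 35.5 to 82.9 TPM in Ctrl against 43.7 to 77.9 TPM in *Kmt5b* sKO libraries. *Col3a1* held 36.3 to 54.9 TPM in Ctrl against 36.7 to 43.6 TPM in *Kmt5b* sKO libraries. The defining marker *Pdgfra* stayed between 0.49 and 1.06 TPM, while *Dcn* and *Lum* are absent from the table.

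Of the receptors, *Fgfr4* (chr13:55152640-55168759, plus strand), a main receptor of myogenic cells, varied widely among Ctrl libraries. Its gene body held 130.3, 78.6 and 31.0 TPM in Ctrl replicates 1 to 3 against 33.8, 23.2 and 41.2 TPM in *Kmt5b* sKO replicates 1 to 3. Ctrl replicates 1 and 2 lay above all *Kmt5b* sKO libraries, whereas Ctrl replicate 3 lay within their range, and the log2 fold change of -1.09 ± 0.49 (standard error) was not called (limma, adjusted p = 0.34). Without Ctrl replicate 3 it was -1.65 and was called (limma, adjusted p = 0.048). Without Ctrl replicate 1 it was -0.62 and was not called (limma, adjusted p = 0.64). The TSS region overlapped as well, with 56.7, 39.6 and 20.46 RPM in Ctrl against 39.3, 19.2 and 13.3 RPM in *Kmt5b* sKO libraries (log2 fold change -0.72 ± 0.38 standard error, limma, adjusted p = 0.52).

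*Fgfr1* (chr8:25518759-25575718, plus strand), the receptor through which FGF2 acts on satellite cells, held 46.0, 44.2 and 27.3 TPM in Ctrl against 29.3, 29.8 and 37.3 TPM in *Kmt5b* sKO gene bodies. Its groups overlapped (log2 fold change -0.25 ± 0.22 standard error, limma, adjusted p = 0.66). Its TSS region, at 51.5 to 71.3 RPM over the 6 libraries, differed by less than the spread within either group. *Fgfr3* (chr5:33721724-33737067, plus strand) held 9.43, 13.8 and 3.84 TPM in Ctrl against 9.57, 13.1 and 23.1 TPM in *Kmt5b* sKO gene bodies. It overlapped in both regions (gene body log2 fold change 0.80 ± 0.48 standard error, limma, adjusted p = 0.49).

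The values listed for *Fgfr2* do not describe the usual *Fgfr2* gene. The authors listed the isoform with the most TSS signal, here one that spans chr7:130162451-133123350 on the minus strand and starts 2856542 nt from the RefSeq start. Its body of 2960499 nt is 0.075% exonic, holds 14 other coding genes of the same strand, and lies to 27.6% under other same-strand genes. It held 6.11, 5.73 and 6.18 TPM in Ctrl against 5.38, 5.48 and 5.27 TPM in *Kmt5b* sKO libraries. The groups were apart, by a log2 fold change of -0.15 ± 0.14 (standard error) that was not called (limma, adjusted p = 0.70). Its TSS region held 12.4, 13.8 and 6.82 RPM in Ctrl against 6.23, 5.28 and 5.98 RPM in *Kmt5b* sKO libraries, from 8 to 51 reads, and was not called either (log2 fold change -0.80 ± 0.40 standard error, limma, adjusted p = 0.48).

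The make-up of the receptor signal was compared in each library. *Fgfr4* made up 67.9%, 55.2% and 45.3% of the summed gene body TPM of the 4 receptors in Ctrl against 43.3%, 32.4% and 38.6% in *Kmt5b* sKO libraries. *Fgfr3* made up 4.92%, 9.70% and 5.62% in Ctrl against 12.3%, 18.3% and 21.6% in *Kmt5b* sKO libraries. Both shares were apart between the genotypes, and remained so without *Fgfr2* (*Fgfr4* 49.8% to 70.2% against 35.1% to 46.5%, *Fgfr3* 5.08% to 10.1% against 13.2% to 22.7%). As parts of the same total the shares are not independent, since a lower *Fgfr4* value alone raises the *Fgfr3* share. In gene body TPM both genes overlapped between the genotypes. With 3 libraries against 3, a two-sided exact permutation test cannot give a p below 0.1. The ratio of *Fgfr4* to *Fgfr1* was 2.84, 1.78 and 1.13 in Ctrl against 1.15, 0.78 and 1.11 in *Kmt5b* sKO libraries and overlapped, as Ctrl replicate 3 lay within the *Kmt5b* sKO range.

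**Figure D2:**
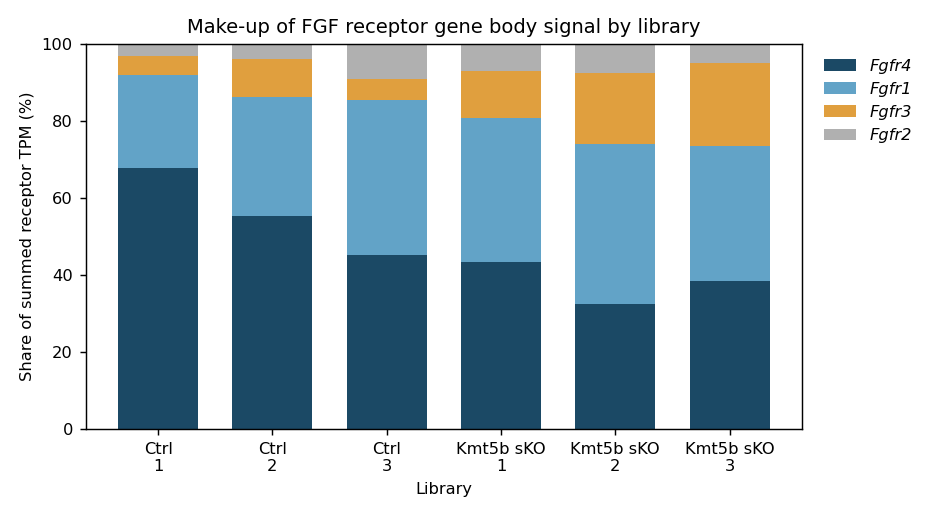
Share (%) of each FGF receptor gene in the summed gene body TPM of all 4 receptor genes, 1 bar for each of the 6 libraries. The *Fgfr4* share is 45.3% to 67.9% in Ctrl and 32.4% to 43.3% in *Kmt5b* sKO libraries, and the *Fgfr3* share is 4.92% to 9.70% and 12.3% to 21.6%. The listed *Fgfr2* isoform spans many other genes.

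All 3 Sprouty genes had higher mean values in *Kmt5b* sKO MuSCs, in both regions. *Spry4* (chr18:38586268-38601268, minus strand) was the only one of the 9 tested genes to be called in either region. Its listed start lies 147 nt from that of the GENCODE vM21 transcript. Its TSS region held 34.9, 50.0 and 40.7 RPM in Ctrl against 66.9, 86.5 and 82.3 RPM in *Kmt5b* sKO libraries, from 87 to 215 reads. The lowest *Kmt5b* sKO library thus lay above the highest Ctrl library, and *Spry4* rose by 0.91 on the log2 scale (standard error 0.23, limma, adjusted p = 0.073). In the gene body it held 14.3, 22.0 and 29.1 TPM in Ctrl against 36.3, 46.5 and 45.2 TPM in *Kmt5b* sKO libraries. The groups were apart there too, but the log2 fold change of 1.0 ± 0.25 (standard error) missed the threshold (limma, adjusted p = 0.12). The TSS call was lost without Ctrl replicate 1 (limma, adjusted p = 0.35) and without *Kmt5b* sKO replicate 1, 2 or 3 (0.17 to 0.21), as well as under median scaling (0.11).

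*Spry2* (chr14:105891949-105896819, minus strand), the most strongly transcribed of the set, held 206.0, 260.8 and 312.6 TPM in Ctrl against 461.7, 385.6 and 402.4 TPM in *Kmt5b* sKO gene bodies. The groups were apart, and the log2 fold change was 0.70 ± 0.19 (standard error, limma, adjusted p = 0.14). Its TSS region, from 107 to 208 reads, held 38.5, 79.9 and 30.1 RPM in Ctrl against 68.2, 70.7 and 85.1 RPM in *Kmt5b* sKO libraries and overlapped through Ctrl replicate 2 (log2 fold change 0.71 ± 0.29 standard error, limma, adjusted p = 0.34). Without that library it was 1.11 and was called (limma, adjusted p = 0.028), with 408 genes called in all in place of 207. Without Ctrl replicate 3 the TSS log2 fold change was 0.42 and was not called (limma, adjusted p = 0.63).

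*Spry1* (chr3:37639947-37644598, plus strand), the Sprouty gene of quiescent satellite cells, held 120.0, 132.7 and 187.0 TPM in Ctrl against 198.1, 182.1 and 249.8 TPM in *Kmt5b* sKO gene bodies. Ctrl replicate 3 lay above *Kmt5b* sKO replicate 2, and the gene was not called (log2 fold change 0.53 ± 0.21 standard error, limma, adjusted p = 0.28). The summed gene body level of the 3 Sprouty genes was 340.3, 415.5 and 528.7 TPM in Ctrl against 696.1, 614.2 and 697.5 TPM in *Kmt5b* sKO libraries, again apart. In the gene bodies of the Ctrl group, replicate 1 was lowest and replicate 3 highest for each Sprouty gene, and *Fgfr4* was highest in replicate 1 and lowest in replicate 3. In the TSS region all 3 Sprouty genes were instead highest in Ctrl replicate 2. Without Ctrl replicate 3, *Spry1*, *Spry2* and *Spry4* were called in the gene body (limma, adjusted p = 0.084, 0.061 and 0.046), but calls over all genes then also went from 372 to 836.

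Counted together, 0 of the 9 genes other than *Fgf6* were called in the gene body by limma, where 2.99% of the 12451 tested genes were called, and 5 of the 9 had an unadjusted p below 0.05, as did 1981 of the 12451. All *Kmt5b* sKO libraries lay above all Ctrl libraries for 3 of the 9 (*Fgf7*, *Spry2* and *Spry4*), which was the case for 12% of the tested genes, and below for 1 (*Fgfr2*), as for 9.34%. The median log2 fold change of the 9 was 0.70, beside 0.023 over all tested genes. In the TSS region 1 of the 9 (*Spry4*) was called, where 1.66% of the tested genes were. There 1 lay wholly above (*Spry4*, against 10.2% of tested genes) and 1 wholly below (*Fgfr2*, against 5.33%), and the median log2 fold change was 0.65, beside 0.081 over all tested genes. Of 9 genes, 1 call is too few to be set against either share.

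**Figure D3:**
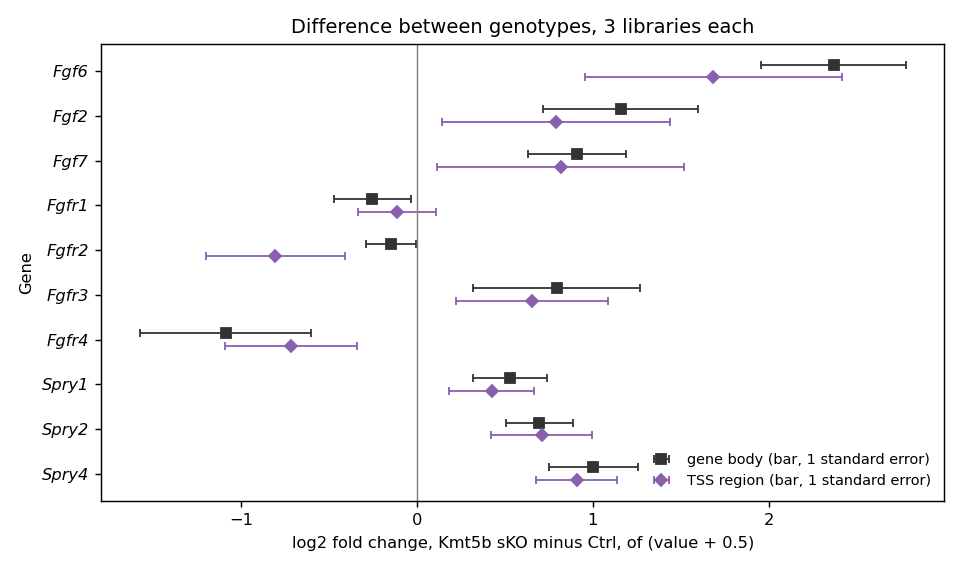
log2 fold change of (value + 0.5), *Kmt5b* sKO minus Ctrl, of the 10 genes in the gene body (squares, TPM) and the TSS region (diamonds, RPM), with bars of 1 standard error from limma on 3 libraries per genotype. The ligands, *Fgfr3* and the Sprouty genes lie to the right of 0 in both regions and *Fgfr1*, *Fgfr2* and *Fgfr4* to the left.

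**Figure D4:**
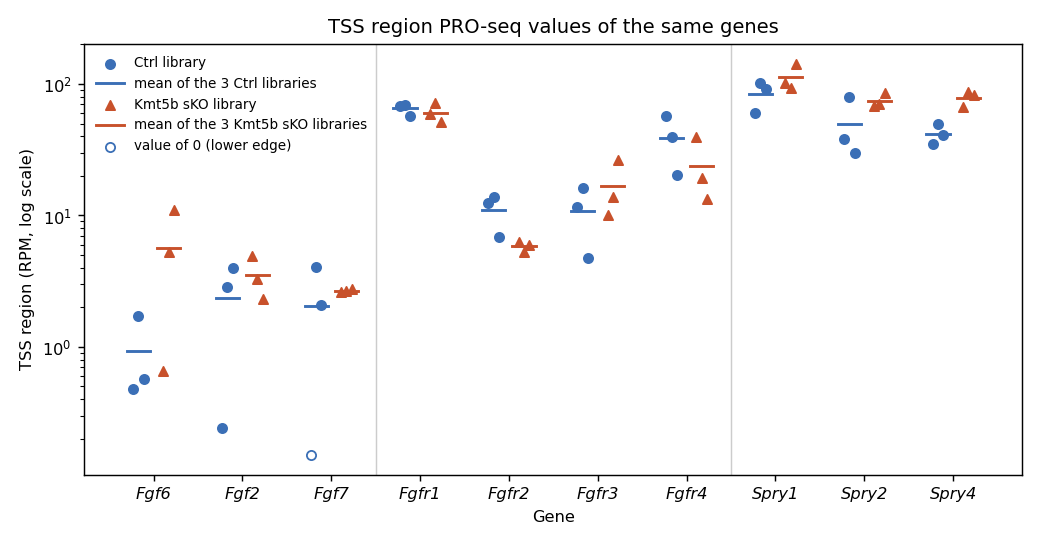
TSS region PRO-seq value (RPM, log scale) of each of the 10 genes in the 3 Ctrl libraries (circles) and the 3 *Kmt5b* sKO libraries (triangles), with horizontal lines at the group means and 1 value of 0 drawn open at the lower edge. The groups are apart for *Spry4* and *Fgfr2*, and the *Fgf6*, *Fgf2* and *Fgf7* values rest on at most 24 reads.

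The pausing index divides the TSS value by that of the gene body and compares polymerase near the start with polymerase further into the gene. As each region is scaled to its own total, a shift of all TSS signal against all gene body signal would not show. In Ctrl MuSCs its median over genes was 1.55. *Spry2* had 0.19, 0.31 and 0.096 in Ctrl, a mean lower than that of all but 2.85% of the genes, and *Fgf6* had 0.21, 0.37 and 0.31, lower than all but 5.49%. The *Fgf6* values rest on only 2, 3 and 3 TSS reads, and its listed start lies 44 nt from the RefSeq start. *Fgfr4* (mean 0.53) and *Spry1* (mean 0.59) were also low, while *Spry4* had 2.44, 2.27 and 1.40, values on either side of that of the median gene. Little TSS signal relative to the body was thus shared by *Spry1* and *Spry2* and not by *Spry4*. Between the genotypes no gene was called (0% of 11698 genes by limma, with 452 at an unadjusted p below 0.05), and none of the 8 members tested without *Fgf6*. *Fgf7* was not tested, having no TSS read in Ctrl replicate 1. *Fgf6* had 0.062, 0.37 and 0.395 in *Kmt5b* sKO libraries, which overlapped the Ctrl values. For *Spry4* the *Kmt5b* sKO values were 1.84, 1.86 and 1.82, a log2 difference of -0.11 ± 0.27 (standard error, limma, adjusted p = 1).

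The remaining pathway was covered by 74 further genes, of which 64 were listed and 55 tested. In the gene body 2 of the 55 were called, both higher in *Kmt5b* sKO MuSCs, and 0 lower, beside the 2.99% over all tested genes. Their median log2 fold change was 0.16, with 40 positive and 15 negative, where 53.8% of all tested genes were positive. In the TSS region 1 was called, also higher, beside 1.66% over all tested genes. Both counts of calls are close to the share over all genes.

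**Figure D5:**
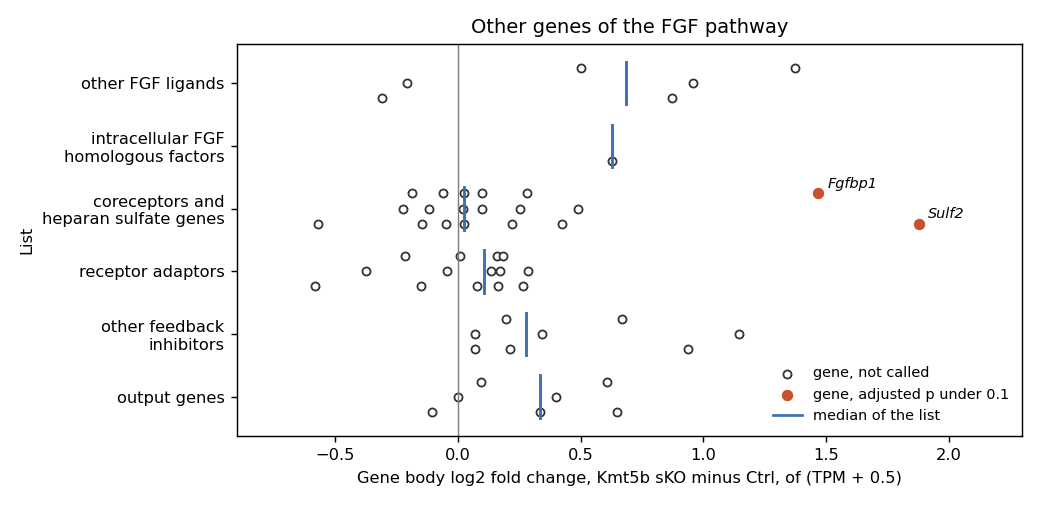
Gene body log2 fold change of (TPM + 0.5), *Kmt5b* sKO minus Ctrl, of the 55 tested genes of 6 FGF pathway lists, 1 point per gene (filled where the adjusted p was under 0.1) and a vertical line at each list's median. *Sulf2* and *Fgfbp1* are the called genes, and the 8 feedback inhibitors all lie to the right of 0.

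Both called genes belong to the 19 tested genes of coreceptors, heparan sulfate and FGF carriers. *Sulf2*, an extracellular enzyme that removes sulfate groups from heparan sulfate and so changes how it binds FGFs, held 1.6, 2.04 and 1.49 TPM in Ctrl against 5.66, 9.28 and 8.23 TPM in *Kmt5b* sKO gene bodies. The groups were well apart, and *Sulf2* rose by 1.88 on the log2 scale (standard error 0.23, limma, adjusted p = 0.061). Its TSS region held 1.21, 2.3 and 0.76 RPM in Ctrl against 10.2, 11.9 and 3.22 RPM in *Kmt5b* sKO libraries and was called too (log2 fold change 2.12 ± 0.56 standard error, limma, adjusted p = 0.085). *Fgfbp1*, a secreted carrier that frees FGFs from the matrix, held 3.0, 3.51 and 2.79 TPM in Ctrl against 8.62, 11.6 and 8.37 TPM in *Kmt5b* sKO gene bodies and rose by 1.47 on the log2 scale (standard error 0.19, limma, adjusted p = 0.061). The TSS call of *Sulf2* was lost without Ctrl replicate 1 or 3 (limma, adjusted p = 0.32 and 0.16) and without *Kmt5b* sKO replicate 1 or 2 (0.36 and 0.29). The calls in the gene body were lost without Ctrl replicate 1 and without each *Kmt5b* sKO replicate (limma, adjusted p = 0.16 to 0.22 for both genes). The Schwann cell marker *Sox10* was called in the gene body as well, at 2.14 to 4.10 TPM in Ctrl against 8.14 to 15.5 TPM in *Kmt5b* sKO libraries, and its relation to these rises was not tested. *Fgfbp3* and the glypican *Gpc1*, with the highest means of this list over the 6 libraries, overlapped between genotypes (log2 fold changes -0.12 and 0.10, limma, adjusted p = 0.93 and 0.91), and the list's median was 0.025.

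The feedback inhibitors other than the members were 8 tested genes of the DUSP phosphatases, which inactivate MAP kinases, the Sprouty-related *Spred* genes and *Il17rd*. None was called (limma, 3 at an unadjusted p below 0.05), where 2.99% of all tested genes were. In the gene body all 8 log2 fold changes were positive, as were 53.8% of those over all tested genes, and their median was 0.28. In the TSS region 6 were positive and 2 negative, with a median of 0.27, where 58.2% of all tested genes were positive. *Dusp5*, with the highest mean over the 6 libraries, held 41.2, 59.2 and 109.0 TPM in Ctrl against 139.1, 169.1 and 80.2 TPM in *Kmt5b* sKO gene bodies and overlapped through *Kmt5b* sKO replicate 3 (log2 fold change 0.94, limma, adjusted p = 0.31). *Dusp4*, which had the higher Ctrl mean, held 65.7, 56.8 and 118.0 TPM in Ctrl against 97.3, 104.1 and 88.8 TPM in *Kmt5b* sKO libraries and overlapped as well (log2 fold change 0.34, limma, adjusted p = 0.62). *Dusp6*, the phosphatase of ERK1 and ERK2, held 23.8, 39.9 and 59.2 TPM in Ctrl against 74.2, 100.54 and 83.4 TPM in *Kmt5b* sKO libraries. These groups were apart and, like the Sprouty genes, lowest in Ctrl replicate 1, but *Dusp6* was not called (log2 fold change 1.15 ± 0.31 standard error, limma, adjusted p = 0.14).

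Adaptors carry the signal from the receptor to RAS. Of the 14 receptor adaptors, 0 were called by limma and 0 had an unadjusted p below 0.05 in the gene body, with 9 positive and 5 negative log2 fold changes and a median of 0.11. *Shc1* and *Sh2b1*, with the highest means over the 6 libraries, had log2 fold changes of 0.29 and 0.26 (limma, adjusted p = 0.51 and 0.74). Of the 7 output genes, whose transcription follows ERK activity in many cells, 0 were called and 1 had an unadjusted p below 0.05, with a median log2 fold change of 0.33. Of these, *Egr1* and *Ccnd1* had the highest means over the 6 libraries. *Egr1* held 416.7, 574.4 and 378.0 TPM in Ctrl against 585.9, 1120.0 and 487.1 TPM in *Kmt5b* sKO gene bodies, and *Ccnd1*, encoding cyclin D1, 98.3, 83.5 and 178.6 TPM and 116.0, 193.2 and 131.0 TPM. Both overlapped (limma, adjusted p = 0.45 and 0.69).

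Among the ligands other than *Fgf6*, *Fgf2* and *Fgf7*, 10 of 15 were listed, 6 were tested and 0 were called by limma. In the gene body 1 (*Fgf5*) had an unadjusted p below 0.05 (log2 fold change 1.37, limma, adjusted p = 0.14). In the TSS region 3 of the 6 had one, as did 1369 of the 12451 tested genes. There 3 had all *Kmt5b* sKO libraries above all Ctrl libraries, as did 10.2% of the tested genes. *Fgf21*, a secreted stress hormone with the highest mean over the 6 libraries, held 10.2, 21.2 and 12.2 TPM in Ctrl against 21.7, 8.88 and 86.2 TPM in *Kmt5b* sKO libraries, so that 1 library set its mean (log2 fold change 0.87 ± 0.73 standard error, limma, adjusted p = 0.65). Its TSS groups were apart, at 15.7 to 29.3 RPM in Ctrl against 29.8 to 99.8 RPM, but not called (limma, adjusted p = 0.20). *Fgf20* held 5.61 to 19.0 TPM in Ctrl against 7.62 to 10.7 TPM in *Kmt5b* sKO libraries. Of the intracellular homologous factors, which are not secreted and bind sodium channels, *Fgf11* was tested, at 72.4, 49.9 and 36.7 TPM in Ctrl against 75.4, 74.2 and 88.5 TPM in *Kmt5b* sKO libraries. These groups were apart but *Fgf11* was not called (log2 fold change 0.63 ± 0.24 standard error, limma, adjusted p = 0.27).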

How the data were processed

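Per the submitters' processing notes and the methods, reads were checked with FastQC 0.11.8, trimmed with Trimmomatic 0.39, aligned to GRCm38 with STAR 2.6.1d, with 1 random position kept for a read that matched several, and stripped of duplicates with Picard 2.18.16. The authors counted sense-strand reads in the TSS region (first 400 nt) and the gene body of isoforms of protein-coding genes and listed the isoform with the most TSS signal. The deposited TSS values are RPM, although the methods name TPM, and the deposited gene body values are TPM. Whole reads (within 0.1 read) were recovered for at least 99.98% of TSS values and for at least 99.4% of values of bodies under 2000 nt.

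Groups were taken from the genotype labels. Genes on chromosomes X and Y and genes with a mean under 0.5 in either region were left out. Values were tested as log2(value + 0.5), a scale that understates changes of low genes, in R 4.3.3 by limma 3.58.1, using lmFit, a trended eBayes and a single term for genotype. Calls required an adjusted p (Benjamini-Hochberg) below 0.1. No pseudocount was used for the pausing index, and edgeR 4.0.16 was run on the recovered reads. The fits were checked on simulated data. TPM had been planned for in both regions, and at the TSS, where all lengths are equal, it is the RPM given here. Member genes and lists were chosen with earlier results of these data known. The text names the 10 genes, the called genes and the 2 highest of each pathway list, 3 neighbours of *Fgf6* on each side and the 5 genes most like it. *Dusp6*, *Tnnc1*, *Sox10* and *Fgf5* were named after their values were seen. Gene models came from GENCODE vM21 and promoters from RefSeq (GRCm38.p6). Protein sequences were not used here. Genotypes share replicate numbers, but deviations of same-numbered libraries correlated at -0.03 to -0.33, and the numbers were not taken as pairs. Alternatives changed the pseudocount, filter, scaling, variance trend, tool, threshold, replicate block and set of libraries. Tables and plots were made in Python 3.11.15 with scipy 1.17.1, pandas 2.3.3, numpy 2.4.6 and matplotlib 3.10.9.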

Additional observations from a re-analysis of the deposited data

Results flagged for a closer look

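Genes on chromosome X were left out of the fits. Of the pathway genes listed there, 2 had all *Kmt5b* sKO gene body values above all Ctrl values, as did 12% of the tested genes. *Fgf13*, an intracellular homologous factor, held 4.25, 6.75 and 4.52 TPM in Ctrl against 8.90, 8.63 and 10.4 TPM in *Kmt5b* sKO gene bodies, with a *Kmt5b* sKO mean of 9.30 TPM. *Gpc4*, a heparan sulfate carrier of the cell surface, held 10.2, 14.9 and 8.0 TPM in Ctrl against 17.0, 15.3 and 20.7 TPM in *Kmt5b* sKO gene bodies, with a *Kmt5b* sKO mean of 17.66 TPM. Both genes overlapped between genotypes in the TSS region, and the other pathway genes listed on chromosome X overlapped in the gene body. Neither difference was tested.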

How the results depend on the processing

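Gene body log2 fold changes of the 10 genes kept their direction under every alternative run. For *Fgf6*, *Fgf7*, *Fgfr2*, *Spry2* and *Spry4* the gene body groups were apart, so leaving out a library could not have reversed it. *Fgf6* was moreover chosen on this same difference. In the TSS region directions were kept except for *Fgf2* and *Fgf7*. Without Ctrl replicate 1 these were -0.0082 and -0.11 (ranges over libraries left out -0.0082 to 1.29 and -0.11 to 1.48). Calls depended on single libraries. The number of the 9 genes called ranged from 0 to 4 in the gene body and from 0 to 2 in the TSS region when 1 library was left out, and that of the 55 pathway genes from 0 to 6 and from 0 to 2. In the gene body, 4 of the 9 (*Fgfr4*, *Spry1*, *Spry2* and *Spry4*) and 6 pathway genes (*Dusp4*, *Dusp5*, *Dusp6*, *Fgfbp1*, *Flrt2* and *Sulf2*) were called without Ctrl replicate 3, where 0 and 2 were called with all libraries. In the TSS region the 1 call among the 9, *Spry4*, fell to 0 with no filter on low values, without a variance trend, under median scaling and at an adjusted p under 0.05. The 1 TSS call among pathway genes, *Sulf2*, fell to 0 with a pseudocount of 0.1, with no filter, with means of 2 or more required in both regions, without a trend, under quantile normalization and at an adjusted p under 0.05. Of the gene body calls of pathway genes, 0 were left at an adjusted p under 0.05, and edgeR made 4 (*Fgf5*, *Fgfbp1*, *Flrt2* and *Sulf2*). Over all tested genes, limma called 372 in the gene body and 207 in the TSS region, and edgeR 748 and 279. With 1 library left out the limma counts ranged from 0 to 836 (without Ctrl replicate 3) and from 1 to 408 (without Ctrl replicate 2). At an adjusted p under 0.05 they were 1 and 64, and in the TSS region 0 with no filter and 0 without a trend. The cause was not tested.

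With the replicate number as a block, 0 of the 9 genes and 0 pathway genes were called in either region, nor any other gene (*Spry4* in the TSS region, adjusted p = 0.18). Same-numbered libraries did not deviate together, but 3 libraries per group cannot settle whether the numbers pair the samples. The main fit leaves the block out.

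The pausing index of several genes had no stable sign. For *Spry2* the log2 difference of 0.02 became -0.12 under quantile normalization and -0.0396 under median scaling, and with 1 library left out it ranged from -0.42 to 0.41. The ranges with 1 library left out also crossed 0 for *Fgf6* (-0.92 to 0.41), *Fgf2* (-0.85 to 0.11), *Fgfr1* (-0.0327 to 0.36), *Fgfr4* (-0.0227 to 0.90), *Spry1* (-0.22 to 0.10), *Spry4* (-0.36 to 0.046) and *Sulf2* (-0.10 to 1.0). Depth limits the TSS values of *Fgf6*, *Fgf2* and *Fgf7* most, and reads rather than molecules were counted.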
